A study of Oryza sativa with 4 samples.

Results

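The MYB transcription factors of rice leaves were followed on 2-colour Agilent arrays as the non-control probes whose description contains the letters MYB in either case. This rule found 67 of 21495 probes, each with a full-length rice cDNA accession of its own. The descriptions name the best matching known sequence, so a probe called MYB59 is a rice cDNA that resembled Arabidopsis MYB59 and is not shown to be that gene. Of the 67 probes, 61 were described as MYB proteins and 6 as proteins that only carry the word, namely 4 GAMYB-binding proteins and 2 proteins like TOM (target of myb1). A rice sequence gave the description of 35 probes, an Arabidopsis sequence that of 21 and another plant that of 11. There were 14 descriptions that served 2 or more probes, 33 probes in all. Probes are therefore named here by the description and the cDNA accession together.

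Leaves of Oryza sativa indica var. Panvel (named Panvel1 in the methods) were treated with nitrate or with water, in 2 settings with 2 arrays each. The dark group held etiolated leaves of seedlings raised in total darkness and treated in darkness, and the light group held green leaves of seedlings raised in a 12 h light period and treated in light. Per the labels the seedlings were 8 to 10 days old, were grown at 25 °C and received 120 mM nitrate for 2 h, whereas the methods give a shorter treatment, warmer growth and leaves excised and floated on potassium nitrate or water. Both dark and light leaves shared the same variety, and water-treated leaves of the same setting were the control on every array, so each array gave a nitrate over water ratio and also a level in each channel.

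MYB proteins bind DNA through 1 or more repeats of a short helical domain. Plants have many more of them than animals do, and they act in the phenylpropanoid pathway, the circadian clock, the responses to sugar, phosphate, gibberellin and jasmonate, and in cell fate and cell division. In etiolated leaves chloroplast development has not been completed, and it proceeds after exposure to light.

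Nitrate RNA was read in channel 2, because the labels name the dyes but not the treatment of each channel. With channel 2 over channel 1, the mean ratios correlated at r = 1.0 with the tabulated log2 fold changes of the study over 16 probes in dark and 23 in light, so the direction of every ratio rests on those tables. In both settings the nitrate dye was Cy5 for replicate 1 and Cy3 for replicate 2. The methods describe the 2 arrays of a setting as biological replicates with flipped dyes, and their numbers only name them. Between 77.0% and 80.8% of all probes were well above background in a channel, and the ratios of all probes correlated at r = 0.462 between the 2 dark arrays and 0.449 between the 2 light arrays. The array of light replicate 2 had a median red signal of 1263, where the other 3 arrays had 267 to 445. Of the 6 probes described as nitrate or nitrite reductase, the enzymes that nitrate induces, 3 were called higher with nitrate in dark and 4 in light, and none lower. Among all probes 1.81% were called higher in dark and 2.28% in light. Of 25 probes described as green leaf proteins (the small subunit of ribulose bisphosphate carboxylase, chlorophyll a-b binding, carbonic anhydrase, photosystem I and the oxygen-evolving complex), 15 were lower and 1 was higher in water-treated etiolated than in light-grown leaves, where 13.9% and 14.2% of all probes were. The list of etiolation markers matched 2 protochlorophyllide oxidoreductase and 2 SPA1 probes and no phytochrome A probe. Of these 4, 2 were lower in etiolated leaves and none higher, so the label was borne out by the green leaf list and not by this one. Of 11 seed storage and 13 pollen or anther probes, 0 and 1 were higher and 2 and 2 were lower in etiolated leaves.

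Most MYB probes gave a signal. In all 8 channels 52 of the 67 were well above background, 11 were so in some channels, and 4 (OSMYB3 AK110683, OSMYB4 AK108259, myb 7 AK110856 and the oat myb AK111697) in none. No MYB probe had a saturated spot. A probe was called for nitrate when its log2 ratio was at least 1 in size with an unadjusted p of at most 0.05 in limma, and for etiolated over light-grown leaves when the same fold came with a Benjamini-Hochberg adjusted p of at most 0.05. The SE of a nitrate ratio rested on a spread shared by all 4 arrays, so a probe had the same SE in dark and light. The n beside it counts the arrays averaged.

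Few MYB probes passed this threshold for nitrate. In dark 6 of 67 probes (8.96%) were called, 3 higher and 3 lower, where 3.53% of all probes were called, 1.81% higher and 1.72% lower. In light 2 of 67 (2.99%) were called, both lower, beside 3.74% of all probes, 2.28% higher and 1.46% lower. After adjustment over all probes no MYB probe passed in either setting, the smallest adjusted p in limma being 0.0843 in dark and 0.0948 in light. Without the fold threshold, 16 MYB probes in dark (23.9%) and 15 in light (22.4%) had an unadjusted p of at most 0.05, beside 15.9% of all probes in dark and 16.1% in light. The median log2 ratio of the MYB probes was -0.02 in dark and -0.003 in light, and that of all probes -0.01 in both. Both arrays of a setting gave the same sign for 40 of 67 MYB probes in dark and 36 in light (59.7% and 53.7%, beside 61.4% and 58.8% of all probes). Across the MYB probes the ratios of the 2 arrays correlated at r = 0.75 in dark and 0.22 in light, beside 0.46 and 0.45 over all probes. The dark value includes the myb factor AK064679, which was far below 0 on both arrays (-2.30 and -1.75). The light value includes At1g19510 AK112054, which ran in opposite directions on the 2 arrays.

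**Figure D1:**
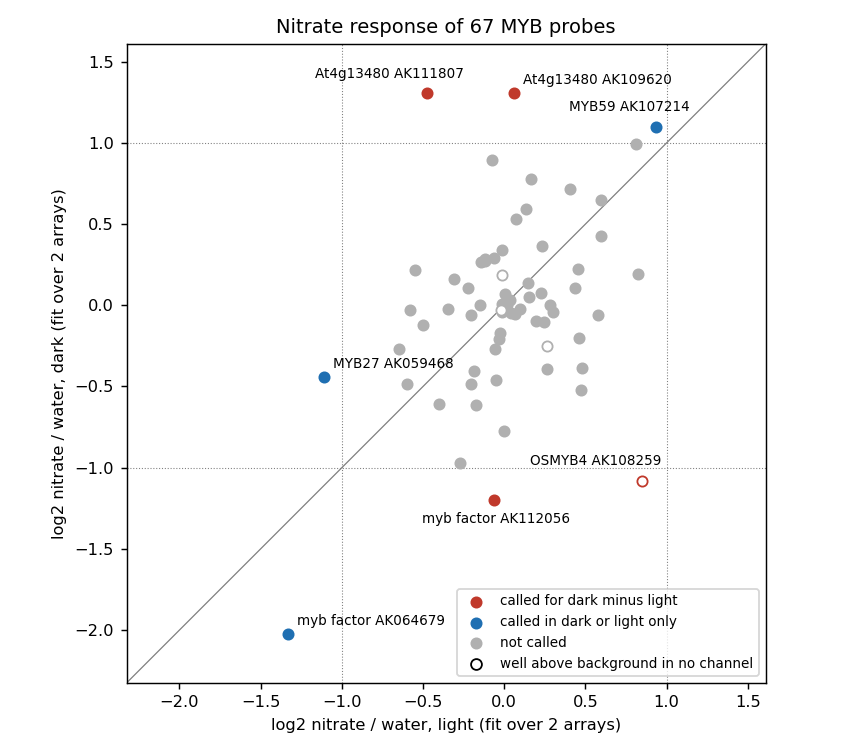
Fitted log2 nitrate/water in dark (vertical axis) against light (horizontal axis) for the 67 MYB probes, 1 point per probe, with dotted lines at a log2 ratio of 1 in size and a grey line of equal response. The myb factor AK064679 lies lowest in both settings, both At4g13480-like probes lie above 1 in dark only, and most probes lie within the dotted lines.

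The rice myb factor AK064679 had the lowest nitrate ratio of the 67 probes in both settings, and was the 1 probe called in both. Its log2 nitrate/water ratio was -2.30 and -1.75 on the 2 dark arrays and -1.05 and -1.61 on the 2 light arrays. All 4 arrays lay below -1. The fit gave -2.03 ± 0.23 (SE, n = 2 arrays) in dark, which is 4.07-fold lower with nitrate (adjusted p = 0.0843 in limma), and -1.33 ± 0.23 in light, 2.52-fold lower (adjusted p = 0.112). In normalized log2 intensity the nitrate channel read 6.72 and 7.35, against 9.02 and 9.10 in water, in dark. In light it read 8.46 and 8.47 with nitrate, against 9.51 and 10.08 with water. Nitrate and water channels did not overlap in either setting. The dark and light ratios differed by -0.69 ± 0.32 (dark minus light, adjusted p = 0.397), below the threshold of a call. The other probes of this description were not called for nitrate. AK107483 was well above background in no dark channel and in 1 nitrate and 2 water channels in light, where its ratio was -0.12, and AK108709 stood at 0.19 in dark and 0.82 in light (adjusted p = 0.123 in limma in light).

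MYB27 AK059468, named after a rice MYB27 protein, was called in light. Its log2 ratio was -0.45 and -0.43 on the dark arrays and -1.31 and -0.91 on the light arrays, so all 4 arrays were below 0 and the light arrays were the lower ones. The fit gave -1.11 ± 0.16 (SE, n = 2) in light, 2.16-fold lower with nitrate (adjusted p = 0.0948 in limma), and -0.44 ± 0.16 in dark (adjusted p = 0.309). The light ratio was -0.91 without light replicate 1 and -0.74 with the normexp background correction, and neither met the fold threshold. The difference of 0.67 ± 0.22 (dark minus light, adjusted p = 0.29 in limma) was below the fold threshold.

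The rice myb factor AK112056 was lower with nitrate in dark. The ratios were -1.18 and -1.22 on the dark arrays and -0.39 and 0.26 on the light arrays, and no dark array overlapped a light one. The fit gave -1.20 ± 0.20 (SE, n = 2) in dark, 2.29-fold lower with nitrate (adjusted p = 0.129 in limma), and -0.06 ± 0.20 in light. In dark the nitrate channel stood at 10.39 and 10.29, against 11.57 and 11.50 in water. Its neighbour in description, AK111798, had -0.27 in dark and -0.06 in light.

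The MYB59-like AK107214 had a higher nitrate channel on all 4 arrays. Arabidopsis MYB59 is known for a part in root growth and in the root to shoot movement of potassium and nitrate. The log2 ratios of AK107214 were 1.21 and 0.99 on the dark arrays and 0.94 and 0.92 on the light arrays. The 4 values spanned a narrow range, and the dark arrays were the higher. The fit gave 1.10 ± 0.14 (SE, n = 2) in dark, 2.14-fold higher with nitrate and called (adjusted p = 0.0902 in limma), and 0.93 ± 0.14 in light, 1.91-fold and under the fold threshold (adjusted p = 0.0968). The dark ratio was 0.99 without dark replicate 1 and 0.80 with the normexp background correction, and neither met the fold threshold. The dark and light ratios were not shown to differ (dark minus light 0.17 ± 0.19, adjusted p = 0.727), so the call in dark alone says nothing of a difference between settings. The other MYB59-like probe, AK111626, had 0.37 ± 0.25 in dark and 0.23 ± 0.25 in light and was not called.

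JAMyb AK072403, whose namesake is a rice MYB induced by jasmonate and linked to disease lesions, lay just under the threshold in dark. Its log2 ratio was 0.84 and 1.14 on the dark arrays and 1.06 and 0.56 on the light arrays. All 4 arrays were above 0 and the settings overlapped. The fit gave 0.99 ± 0.19 in dark (adjusted p = 0.151 in limma) and 0.81 ± 0.19 in light (adjusted p = 0.172). The dark ratio was 1.05 with median centring in place of loess and 1.14 without dark replicate 1, and was called in both, and without light replicate 2 the light ratio was 1.06 and was called. The other JAMyb probe, AK069082, had 0.22 ± 0.14 in dark and 0.46 ± 0.14 in light.

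Both probes described as the Arabidopsis gene At4g13480, a MYB also known as MYB79, were called higher with nitrate in dark. AK111807 had log2 ratios of 1.22 and 1.40 on the dark arrays, with a fit of 1.31 ± 0.15 (SE, n = 2), 2.48-fold higher with nitrate (adjusted p = 0.0843 in limma). Its dark levels were 7.76 and 7.76 in the nitrate channel, against 6.53 and 6.36 in water, with no overlap. In light no channel of this probe stood well above background, so no fold is given there. AK109620 had ratios of 1.43 and 1.18 in dark, where the nitrate channel was well above background on both arrays and the water channel on neither. For AK109620 in dark, the water level was taken as the lowest signal well above background on each array, or the water signal where higher. Against that level nitrate was 2.23-fold higher, and this fold is not a lower limit. The fitted log2 ratio of AK109620 in dark was 1.31 ± 0.18 (adjusted p = 0.0993 in limma). In light AK109620 was not well above background in any channel. With the normexp background correction the dark ratios were 0.52 for AK111807 and 0.21 for AK109620, under the fold threshold.

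**Figure D2:**
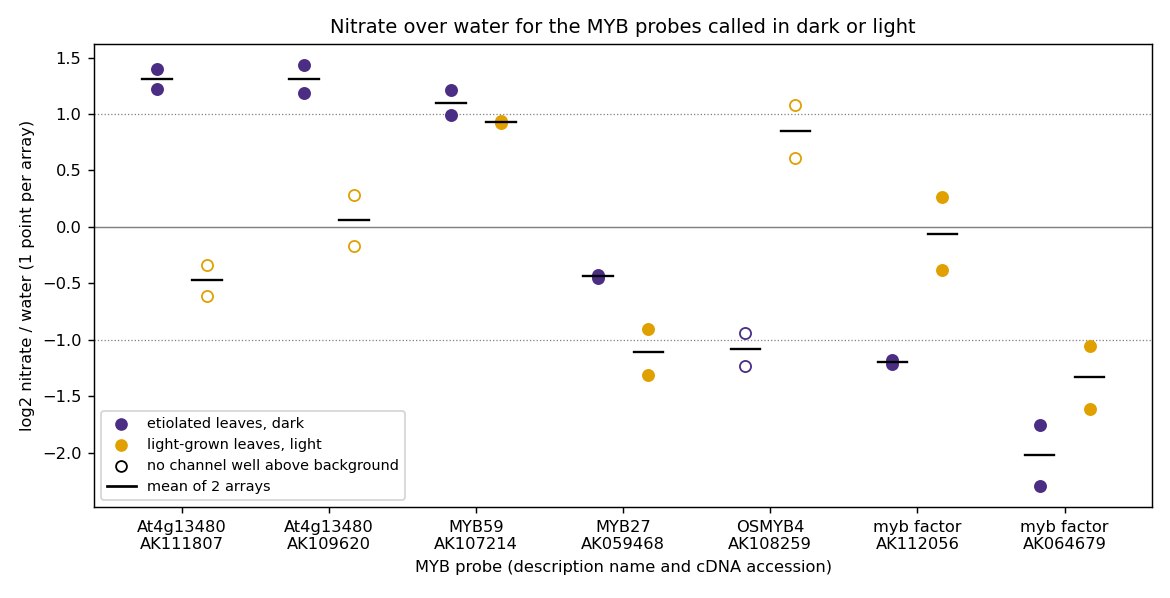
Log2 nitrate/water on each array for the 7 MYB probes called in dark or light, with dark points left of light points, a bar at the mean of the 2 arrays, dotted lines at a log2 ratio of 1 in size, and open points where both channels stayed near background. All 4 arrays of the myb factor AK064679 lie below -1 and all 4 of the MYB59-like AK107214 lie above 0.

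The third lower call in dark was OSMYB4 AK108259, with ratios of -0.94 and -1.23 on the dark arrays and 1.08 and 0.61 on the light arrays. None of its 8 channels was well above background, so these ratios were formed from signals near background and no fold is given. Its call in dark was lost without dark replicate 2 (-0.94) and with the normexp correction (-0.06).

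No other MYB probe was called for nitrate in either setting. The 2 MYB3R-5-like probes, named after the Arabidopsis family of MYB proteins with an additional repeat that controls genes of cell division, both had positive ratios in dark. AK066520 gave 0.72 and 0.71 in dark and 0.05 and 0.76 in light, and AK106756 was well above background in the nitrate channel of 1 dark array only. AK066520 reached 0.71 ± 0.21 in dark (adjusted p = 0.252 in limma), under the fold threshold. Of the cpm7-like probes, named after a MYB of the resurrection plant Craterostigma, AK103455 had -0.88 and -1.07 in dark and -0.15 and -0.40 in light, with a fit of -0.97 ± 0.15 in dark (adjusted p = 0.112 in limma) that fell short of the fold threshold. Without dark replicate 1 its dark ratio was -1.07 and was called.

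The 4 MYBS probes, named for rice MYB proteins that bind the sugar-response element of alpha-amylase promoters, had fitted ratios of -0.39 to 0.16 in dark and -0.31 to 0.26 in light, and none was called. GAMyb AK063951, the gibberellin-induced activator of alpha-amylase genes, was well above background on 1 dark array in each channel and on no light array. The 4 GAMYB-binding protein probes had -0.48 to -0.02 in dark and -0.20 to 0.09 in light. The 2 TOM1-like probes, whose namesake acts in vesicle traffic, had -0.39 and -0.05 in dark and 0.48 and 0.04 in light.

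The 17 rice probes described only as a myb factor or myb protein, AK064679 and AK112056 among them, had fitted ratios of -2.03 to 0.89 in dark and -1.33 to 0.82 in light. The myb factor AK111720 lay below 0 on all 4 arrays, at -0.28 and -0.69 in dark and -0.50 and -0.70 in light, and was not called. The myb protein AK072361 gave 1.44 and 0.35 in dark and -0.71 and 0.56 in light, so its light arrays differed in sign. Its SE, the same in both settings, was 0.42. The 12 probes with a rice MYB name of their own, OSMYB4 included, had -1.08 to 0.99 in dark and -1.11 to 0.85 in light.

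Among the probes named after Arabidopsis genes, the 3 MYB36-like probes, whose namesake controls the Casparian strip of the root endodermis, had -0.77 to 0.27 in dark and -0.65 to -0.003 in light. MYB103-like AK111808, named for a MYB of secondary walls, had 0.43 in dark and 0.60 in light. MYB105-like AK107461 (organ boundaries in Arabidopsis) and MYB124-like AK063426 (stomatal lineage in Arabidopsis) had 0.11 and 0.00 in dark and 0.43 and -0.15 in light. None of these 6 probes was called for nitrate.

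**Figure D3:**
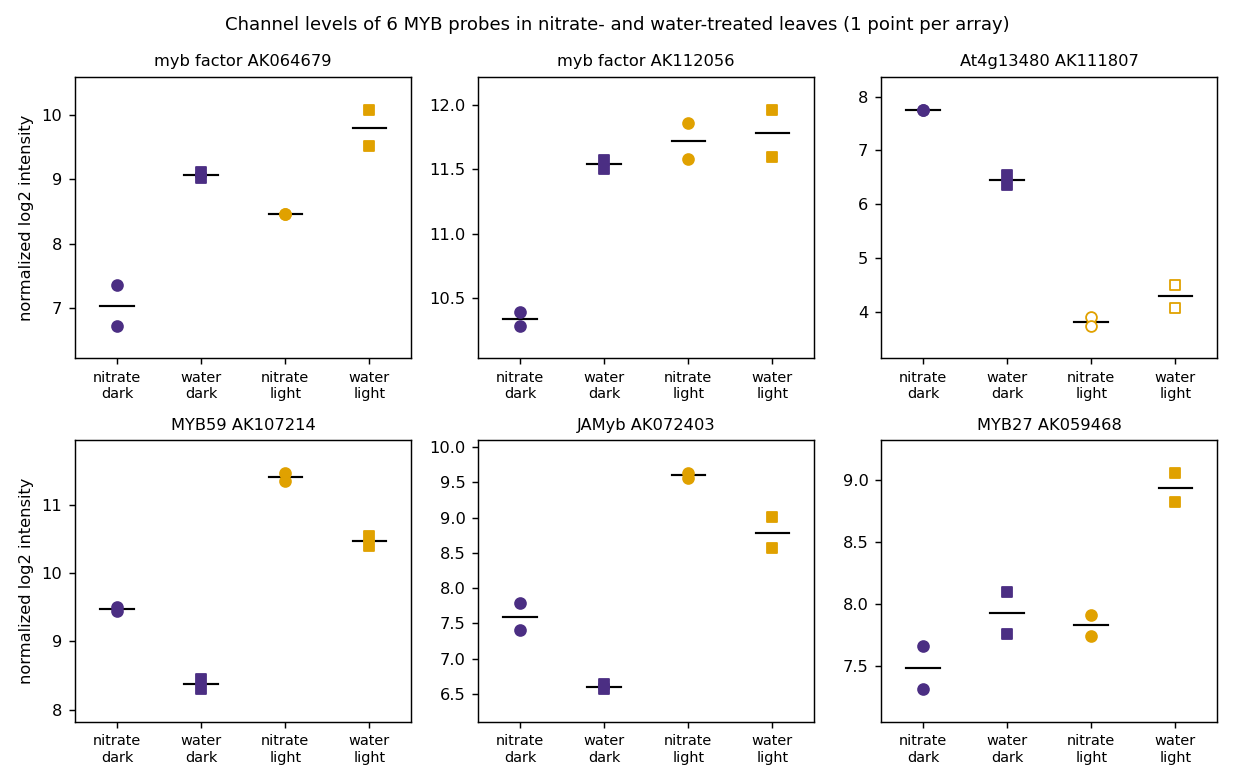
Normalized log2 intensity of 6 MYB probes in the nitrate channel (circles) and the water channel (squares), 1 point per array, with dark left of light, a bar at the mean, open symbols where a channel stayed near background, and a vertical scale of its own in each panel. The nitrate points of the myb factor AK064679 lie below its water points in both settings, and those of the MYB59-like AK107214 and JAMyb AK072403 lie above them.

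Whether the nitrate response differed between settings was tested as the dark ratio minus the light ratio. At the threshold of the calls, 4 of 67 MYB probes (5.97%) differed, 2 higher and 2 lower in dark, where 6.51% of all probes did, 2.98% higher and 3.54% lower. None passed after adjustment in limma (smallest adjusted p = 0.143), and 12 (17.9%) had an unadjusted p within 0.05 whatever their fold, beside 15.7% of all probes. The myb factor AK112056, well above background in every channel, differed by -1.14 ± 0.28 (adjusted p = 0.238). It was -0.81 without light replicate 2, -1.15 without dark replicate 1 and -1.12 without dark replicate 2, and it was called in none of these 3 fits, the last 2 by their unadjusted p of 0.0567 and 0.0614. The At4g13480-like AK111807 differed by 1.78 ± 0.21 (adjusted p = 0.143) and AK109620 by 1.25 ± 0.25 (adjusted p = 0.212), and in both the light ratio was formed from channels not well above background. With the deposited ratios the difference of AK109620 was 0.92, under the fold threshold. With the normexp correction the differences were 0.57 for AK111807 and 0.17 for AK109620. The fourth was OSMYB4 AK108259, at -1.93 ± 0.26 (adjusted p = 0.161) with no channel well above background, and was -0.23 with the normexp correction.

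Below the fold threshold, the dark and light arrays were apart in further probes. The DIVARICATA-like At2g38090 AK111988 had ratios of -0.70 and -0.34 in dark and 0.80 and 0.15 in light, a difference of -0.99 ± 0.31 (adjusted p = 0.272 in limma), which was -1.32 and called without light replicate 2. OSMYB2 AK063027 had 0.37 and 0.06 in dark and -0.53 and -0.57 in light (0.76 ± 0.21, adjusted p = 0.249). The TOM1-like AK067871 had -0.42 and -0.35 in dark and 0.35 and 0.61 in light (-0.87 ± 0.20, adjusted p = 0.226). In each of these probes both dark arrays lay on one side of 0 and both light arrays on the other. That follows largely from choosing probes by this difference, and none of these differences passed after adjustment. How often such signs occur among all probes was not tested.

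At1g19510 AK112054, named for a RADIALIS-like MYB, turned its ratio with the array. It read -1.23 on light replicate 1 and 2.42 on light replicate 2, and 0.88 and 0.42 on the dark arrays, where no channel was well above background. The light arrays opposed each other and the fit of 0.60 ± 0.90 in light was not called. In the light water channel it was well above background on 1 array, at 6.0, against 3.42 on the other.

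More MYB probes were called between the 2 settings than between nitrate and water. Between water-treated etiolated and water-treated light-grown leaves, 21 of 67 MYB probes (31.3%) were called, 9 higher and 12 lower in etiolated leaves, where 28.1% of all probes were called, 14.2% higher and 13.9% lower. The shares were close to those of all probes. The median log2 difference was -0.04 for the MYB probes and 0.01 for all probes, and the median size 0.69 and 0.58. Fewer cells of a type and less RNA per cell cannot be told apart in such leaf samples. Dark growth, etiolation and treatment in darkness went together in every sample and cannot be told apart either.

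**Figure D4:**
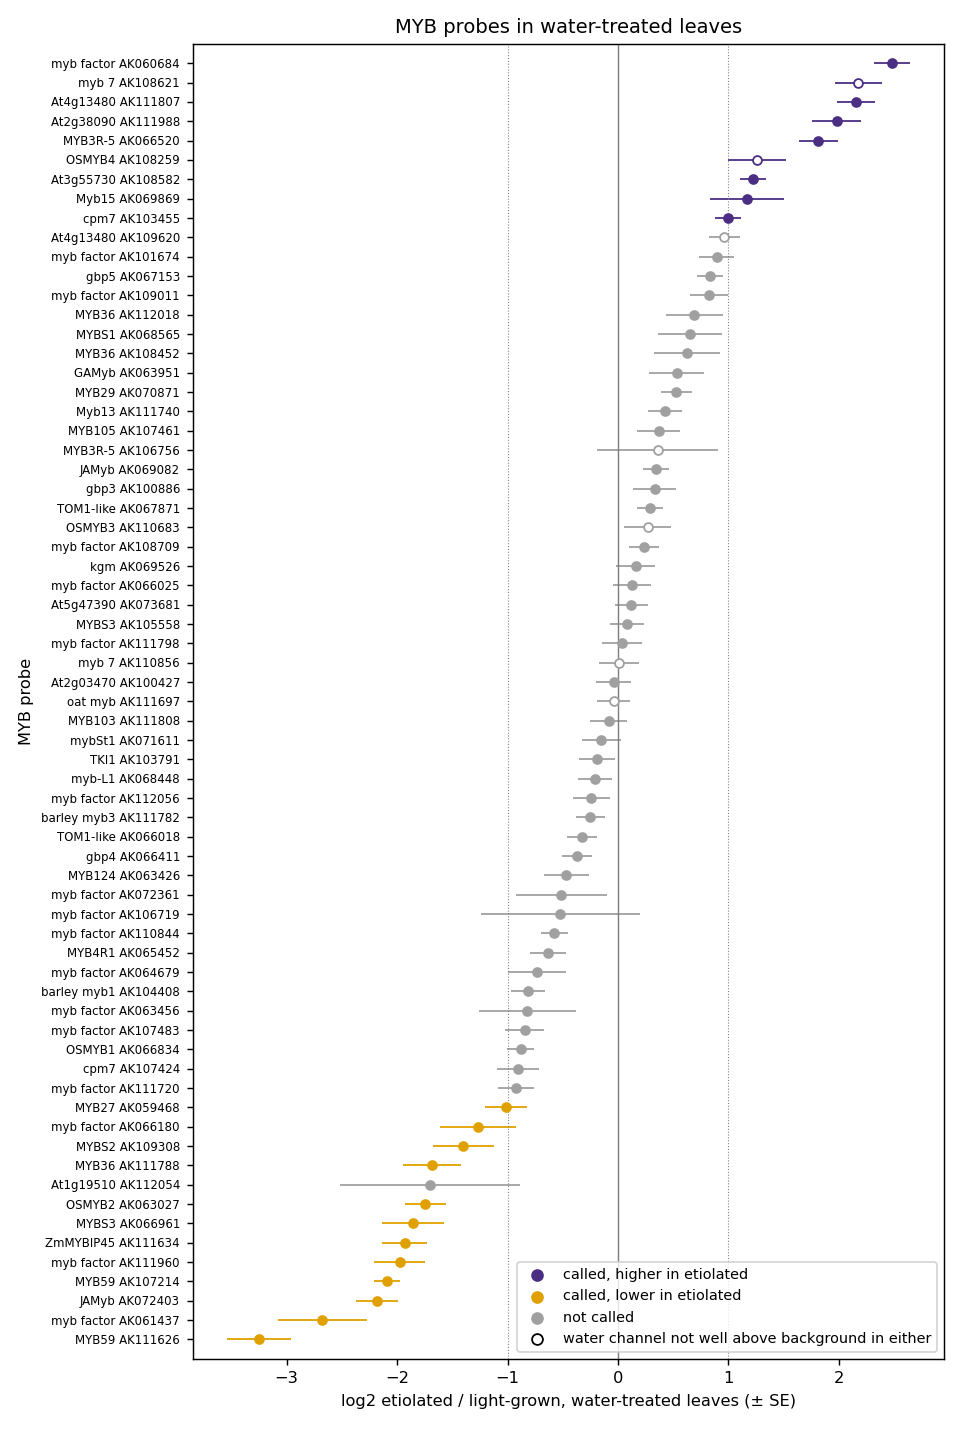
Log2 difference between water-treated etiolated and light-grown leaves for the 67 MYB probes in order of size, with the SE of the fit over 4 arrays, dotted lines at 1 in size, and open points where the water channel was not well above background in either setting. The values run from -3.25 for MYB59-like AK111626 to 2.48 for the rice myb factor AK060684.

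Both MYB59-like probes were lower in etiolated leaves. The water channel of AK111626 read 5.74 and 5.71 in etiolated leaves, against 8.75 and 9.20 in light-grown leaves, a log2 difference of -3.25 ± 0.29 (9.53-fold lower, adjusted p = 0.000349 in limma). That of AK107214 read 8.30 and 8.46 in etiolated leaves, against 10.40 and 10.54 in light-grown leaves, a difference of -2.09 ± 0.12 (4.26-fold lower, adjusted p = 7.9e-05). In neither probe did the settings overlap.

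JAMyb AK072403 was also lower in etiolated leaves, at 6.57 and 6.64, against 8.57 and 9.0 in light-grown leaves (-2.18 ± 0.19, 4.54-fold lower, adjusted p = 0.000353 in limma). The other JAMyb probe, AK069082, was not called and stood at 9.09 and 9.21 in etiolated leaves, against 8.90 and 8.72 in light-grown leaves (0.34 ± 0.12, adjusted p = 0.0553), with both etiolated arrays the higher. Likewise MYBS3 AK066961 was lower in etiolated leaves (-1.85 ± 0.28, adjusted p = 0.00275 in limma), where 1 of 2 arrays was well above background. Its difference shrank to as little as -0.61 in the alternative runs. The other MYBS3 probe, AK105558, was not called (0.08 ± 0.15, adjusted p = 0.721 in limma). MYBS3 acts in cold tolerance in rice as well. Probes with 1 description need not stem from the same gene, and whether the probes of a pair report 1 transcript was not tested.

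Lower in etiolated leaves as well were the rice myb factors AK061437 and AK111960 and the maize-named ZmMYBIP45 AK111634. AK061437 read 4.06 and 4.52 in etiolated leaves, where 1 of 2 arrays was well above background, against 6.75 and 7.18 in light-grown leaves (-2.68 ± 0.40, adjusted p = 0.00276 in limma), and without light replicate 2 its difference of -2.43 had an adjusted p of 0.0564. AK111960 stood at 7.57 and 7.88 in etiolated leaves, against 9.44 and 9.96 in light-grown leaves (-1.98 ± 0.23, adjusted p = 0.000992). ZmMYBIP45 AK111634 stood at 9.71 and 10.10 in etiolated leaves, against 11.64 and 12.02 in light-grown leaves (-1.93 ± 0.20, adjusted p = 0.00065). In all 3 the settings did not overlap.

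The other lower calls were OSMYB2 AK063027 (-1.75 ± 0.18), MYB36-like AK111788 (-1.69 ± 0.26), MYBS2 AK109308 (-1.40 ± 0.28), the myb factor AK066180 (-1.27 ± 0.34) and MYB27 AK059468 (-1.01 ± 0.19). Their adjusted p values in limma lay between 0.000678 and 0.0264. MYB27 lost its call without light replicate 1 (-0.89) or dark replicate 1 (-0.85) and with equal medians between arrays (-0.99), and MYBS2 without dark replicate 1 (adjusted p = 0.0687). AK066180 lost its call without light replicate 2 (-0.94), dark replicate 1 (adjusted p = 0.154) or dark replicate 2 (adjusted p = 0.0695).

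Highest in etiolated leaves relative to light-grown ones was the putative rice myb protein AK060684. Its water channel read 14.73 and 14.57 in etiolated leaves, against 12.37 and 11.96 in light-grown leaves, a difference of 2.48 ± 0.17 (5.59-fold higher, adjusted p = 0.000127 in limma), with no overlap. Nitrate left its ratios between -0.15 and 0.45 on the 4 arrays.

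The DIVARICATA-like At2g38090 AK111988 stood at 13.65 and 13.64 in etiolated leaves, against 11.36 and 11.96 in light-grown leaves (1.98 ± 0.22, adjusted p = 0.000867 in limma). MYB3R-5-like AK066520 stood at 13.64 and 13.59, against 12.0 and 11.59 (1.82 ± 0.17, 3.52-fold higher, adjusted p = 0.000451). At3g55730 AK108582 stood at 10.54 and 10.50, against 9.38 and 9.22 (1.22 ± 0.12, adjusted p = 0.000509). In each of the 3 probes both etiolated arrays were above both light-grown arrays.

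Some higher calls set a signal in etiolated leaves against one near background in light-grown leaves. At4g13480-like AK111807 read 6.53 and 6.36 in etiolated leaves and was not well above background in light-grown leaves (4.51 and 4.08). The light-grown level was taken as the lowest signal well above background on each array, or the probe's own signal where higher. Against that level AK111807 was 4.43-fold higher in etiolated leaves. Its fitted log2 difference was 2.16 ± 0.17 (adjusted p = 0.000236 in limma). The fold of 4.43 is not a lower limit, as the log2 difference was as low as 0.82 in the alternative runs. Myb15 AK069869 read 6.11 and 6.0 in etiolated leaves and was not well above background in light-grown leaves (4.46 and 5.32). The fold of Myb15 taken in the same way was 2.25, beside a fitted log2 difference of 1.17 ± 0.34 (adjusted p = 0.0329 in limma). That fold is not a lower limit either, as the log2 difference of Myb15 was as low as 0.02 in the alternative runs. The call of Myb15 was lost without dark replicate 1 (adjusted p = 0.121), dark replicate 2 (0.104) or light replicate 1 (0.74 on the log2 scale), and with a dye term (0.109) or the water channels alone (0.0558). The cpm7-like AK103455 was at the threshold, at 1.0 ± 0.12 (adjusted p = 0.00104), and fell below it without light replicate 1 (0.93) or dark replicate 2 (0.99) and with equal medians (0.98) or quantile scaling (0.995). The calls of myb 7 AK108621 and OSMYB4 AK108259 came from water channels not well above background in either setting, and no fold is given. With the normexp background correction 10 of the 21 calls were kept, namely MYB59-like AK111626 and AK107214, JAMyb AK072403, AK111960, ZmMYBIP45 and OSMYB2 among the lower and AK060684, At2g38090, MYB3R-5-like AK066520 and At3g55730 among the higher. The other 11 kept their direction, at -0.99 to 0.85.

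**Figure D5:**
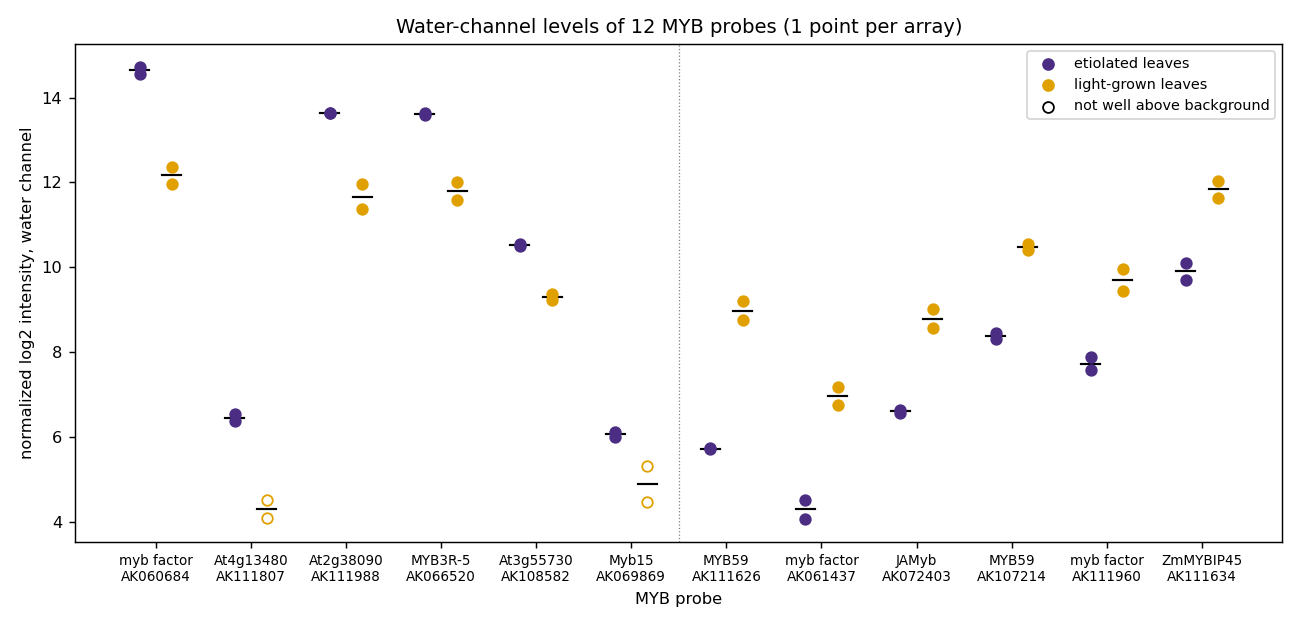
Normalized log2 intensity in the water channel on each array for the called MYB probes with the 6 largest increases and the 6 largest decreases in etiolated leaves among those well above background on both arrays of the brighter setting, with etiolated left of light-grown points, a bar at the mean, and open points where the channel stayed near background. In all 12 probes the etiolated and light-grown arrays do not overlap, which follows largely from choosing called probes with the largest differences.

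Whatever their fold, 33 MYB probes (49.3%) had an adjusted p of at most 0.05, beside 45.2% of all probes. Among those under the fold threshold were gbp5 AK067153, a GAMYB-binding protein, at 0.83 ± 0.12 (adjusted p = 0.00195 in limma), OSMYB1 AK066834 at -0.88 ± 0.12 (adjusted p = 0.00193) and the barley-named myb1 AK104408 at -0.81 ± 0.16 (adjusted p = 0.00754). The first was higher and the others were lower in etiolated leaves.

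By kind of description, the 12 probes with a rice MYB name of their own had 2 higher and 3 lower calls in etiolated leaves, where 14.2% of all probes were higher and 13.9% lower. The 17 rice probes described only as a myb factor or myb protein had 1 higher and 3 lower, and the 2 myb 7 probes 1 higher, from channels not well above background. Apart from the MYB3R-5-like probes and those of single-repeat type or with a more distant domain, the 11 probes named after Arabidopsis MYB genes had 2 higher and 3 lower. The 4 MYBS probes had 2 lower calls and no higher one, the 6 probes named after other plants 1 higher and 1 lower, and the 2 MYB3R-5-like probes 1 higher. The 4 probes of single-repeat type (At1g19510, At2g38090, At5g47390 and the potato mybSt1) had 1 higher call. The 6 probes that are not MYB proteins themselves and the 3 described by At2g03470, TKI1 or MYB4R1 had no call in any comparison, with differences between etiolated and light-grown leaves of -0.63 to 0.83.

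The partners of MYB proteins in known pathways were read from lists of description words. Of 7 clock and CONSTANS-like probes, 0 were called for nitrate in either setting, while in water-treated etiolated leaves 3 were lower and 1 was higher (42.9% and 14.3%, beside 13.9% and 14.2% of all probes). The list held 1 clock component, the gigantea homologue AK072166, and otherwise probes described as CONSTANS or CONSTANS-like. AK072166 was lower by -1.98 ± 0.15 on the log2 scale (adjusted p = 0.00022 in limma). Many MYB proteins control flavonoid and phenylpropanoid enzymes in other plants, and 78 probes were described as such enzymes or as proteins like them. Of these 78, 2 were higher and 3 lower with nitrate in dark (2.56% and 3.85%, beside 1.81% and 1.72% of all probes). In light 4 were higher and 1 lower (5.13% and 1.28%, beside 2.28% and 1.46%). In etiolated leaves 16 were higher and 17 lower (20.5% and 21.8%, beside 14.2% and 13.9%). AK061337 among the higher calls in dark, and AK068438 and AK100853 among those in light, were described only as flavanone 3-hydroxylase-like. Chalcone synthase AK110924, among the lower calls in dark, was well above background in the water channel of 1 array and in no nitrate channel. A list for phosphate starvation held 27 probes, chosen by the words SPX domain, phosphate transporter or purple acid phosphatase. It took in a mitochondrial phosphate transporter (AK069611), so it is wider than its name. Of the 27 probes, 0 were higher and 4 lower with nitrate in dark, where 14.8% lower stands beside 1.72% of all probes. In light 1 was higher and 0 were lower (3.7% higher, beside 2.28%), and in etiolated leaves 3 were higher and 6 lower (11.1% and 22.2%, beside 14.2% and 13.9%). The medians of these lists for nitrate in dark and in light lay between -0.09 and 0.11.

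A list of 7 probes for relatives with a MYB-like domain, whose descriptions do not hold the word MYB, held 3 GARP proteins, 2 probes like the clock factor LHY and 2 described as telomere binding protein-1. It had 1 probe lower with nitrate in dark (14.3%, beside 1.72% of all probes) and 1 higher in light (14.3%, beside 2.28%). In the dark minus light comparison 3 were lower (42.9%, beside 3.54%). In etiolated leaves 2 were higher and 1 lower (28.6% and 14.3%, beside 14.2% and 13.9%). The list median was -0.61 in dark, 0.28 in light and -0.835 for dark minus light, over 7 probes only. The medians of all probes were -0.012, -0.007 and -0.007. LHY-like AK111726, a MYB-like core component of the clock, had a nitrate ratio of 0.94 ± 0.16 in dark and 2.40 ± 0.16 in light (adjusted p = 0.0409 in limma in light), a difference of -1.46 ± 0.23 (adjusted p = 0.187). Its water channel read 10.30 and 10.32 in etiolated leaves, against 7.41 and 7.49 in light-grown leaves (2.86 ± 0.15, adjusted p = 6.25e-05). KANADI4-like AK108408, a GARP protein whose Arabidopsis relatives set leaf polarity, had a nitrate ratio of -1.08 ± 0.19 in dark (adjusted p = 0.14 in limma) and 0.03 ± 0.19 in light, a difference of -1.11 ± 0.28 (adjusted p = 0.237). Its water channel read 9.74 and 9.54 in etiolated leaves, against 7.98 and 8.02 in light-grown leaves (1.64 ± 0.19, adjusted p = 0.00106). GLK1 AK061946, a GARP factor of chloroplast development, was lower in etiolated leaves (-1.12 ± 0.17, adjusted p = 0.00278). The other LHY-like probe, AK111893, was not called in any of the 4 comparisons.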

How the data were processed

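RNA of nitrate-treated and water-treated leaves was hybridised on 4 2-colour Agilent arrays of 1 slide and 1 scan. The authors deposited each scanner file holding intensity values per channel, flags for signals well above background and log10 ratios. Feature Extraction (version 9.5.3.1 per the file headers, another version in the methods) had already subtracted background and balanced the dyes. They also deposited a table of normalized ratios. Log2 ratios of the processed signals were normalized by loess (span 0.3, 4 iterations), averaged over 2 spots and fitted with limma 3.58.1 in R 4.3.3, with all 4 arrays sharing 1 spread. Control and outlier spots were left out, and a probe counted as well above background where at least 1 of its spots did. Water channels were compared by limma's separate-channel analysis after Aquantile scaling (statmod 1.5.0, within-spot correlation -0.0465). Benjamini-Hochberg adjustment was over all probes. Fits were tested on simulated data. Figures were drawn with matplotlib 3.10.9.

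With 2 arrays per setting, their number limits the precision. Members, lists and tests were chosen with earlier results of these data known. By rule, the probes named were those called for nitrate or for dark minus light, and the 6 largest increases and 6 largest decreases in water among called probes well above background on both arrays of the brighter setting. Other named probes were near a threshold, shared a description or had a known role, and were chosen after their values were seen. Alternatives were normexp (offset 50), median centring, the Feature Extraction log ratio, the deposited ratios, other scalings between arrays, leaving out dim probes, keeping outliers, a dye term, other call rules, each setting or the water channels alone, and leaving out each array. A ratio without loess was added after seeing the data. No accession matched the reference gene table (0 of 67), so no locus, position or sequence is given. The direction of the ratios was taken from the study's tables.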

Additional observations from a re-analysis of the deposited data

Results flagged for a closer look

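The nitrate response differed between dark and light at the unadjusted threshold for 4 MYB probes, none of which passed after adjustment. The dark minus light difference in log2 nitrate/water was 1.78 for the At4g13480-like AK111807 and 1.25 for the At4g13480-like AK109620. It was -1.14 for the rice myb factor AK112056, the 1 of the 4 that was well above background in every channel. It was -1.93 for OSMYB4 AK108259, which was well above background in no channel. With 2 arrays per setting, no sample could be tested as an outlier.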

How the results depend on the processing

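No MYB probe called with all 4 arrays changed direction in that comparison under any alternative run. With the normexp correction the calls numbered 2 in dark, 1 in light, 1 for dark minus light and 10 for etiolated over light-grown leaves, against 6, 2, 4 and 21. Leaving out dim probes gave 3 in dark and 1 for dark minus light. With the adjusted p in the call there were 0, 0 and 0 calls for nitrate in dark, in light and for their difference, and with the unadjusted p at any fold 16, 15 and 12. The cause was not tested, beyond the fewer probes or the changed threshold that these settings bring. Leaving out 1 array gave 6 to 9 calls in dark, 2 to 5 in light, 3 to 6 for dark minus light and 18 to 21 between settings. The 3 calls that light gained without light replicate 2 were OSMYB4 AK108259, At1g19510 AK112054 and JAMyb AK072403, and At1g19510, not called with all arrays, was called with the opposite sign (2.42, against -1.23) without light replicate 1, as was its dark minus light difference (-1.77 without light replicate 1 and 1.87 without light replicate 2). Dark gained JAMyb AK072403, cpm7-like AK103455, MYB3R-5-like AK106756 (1.16) and MYB36-like AK111788 (-1.08) without dark replicate 1 and the myb factor AK063456 (1.02) without dark replicate 2. The dye term, which here equals a replicate block because the dyes were flipped between replicates, gave 6, 2 and 4 calls and changed no call for nitrate. The ratio without loess, added after seeing the data, gave the same counts. Equal medians between arrays moved the median of all probes in the etiolated over light-grown comparison to 0.13, against 0.01. The slide and scan as a block could not be run, as all arrays shared 1 slide and 1 scan. In leaving out an array, the within-spot correlation of the full fit was kept, and the lone array of a setting was assumed to vary like the other setting's. The 2 arrays per setting and the 4 probes near background in every channel limit what the ratios can show.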
